A study of Mus musculus with 2 samples.

Results

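The cytokine receptor genes described here are Csf3r, Csf2ra, Csf2rb, Csf2rb2, Csf1r, Il3ra, Il6ra, Il1rl1, Ifngr1 and Ifngr2. They were taken by gene symbol, and all 10 were found among the 32285 genes listed for each library. Single-cell RNA sequencing with 10x Genomics 3′ chemistry had been carried out on mouse progenitors transformed by PLZF/RARA, a fusion of the zinc finger protein PLZF with retinoic acid receptor alpha that causes a form of acute promyelocytic leukemia. The cells were late promyelocytes, sorted from leukemic bone marrow as FcγR+, Gr1+, C-Kit+, Cd45.2+ and Cd34-. The vehicle group received corn oil with 10% DMSO and the retinoic acid group received 0.8 to 1 mg retinoic acid, in each case by intraperitoneal injection over 7 days. All cells of both groups carried the fusion. The labels do not give the age or strain of the mice, how the fusion was introduced, or how many mice of a cohort of 3 to 5 gave cells to a library. There was 1 library per group. The differences that follow have no check by replicates, and none was tested.

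Cytokine receptors of myeloid cells are assembled from a chain that recognises the cytokine and, for most, a second chain that carries the signal. Csf2ra and Il3ra encode the alpha chains for GM-CSF and IL-3. Csf2rb encodes the beta chain shared by GM-CSF, IL-3 and IL-5, and Csf2rb2 encodes a second beta chain, present in mice, that serves IL-3 alone. Csf3r encodes the receptor for G-CSF, the main growth factor of neutrophils, and Csf1r the receptor tyrosine kinase for M-CSF that marks monocytes and macrophages. Il6ra encodes the IL-6 binding chain, which signals through gp130 (Il6st). Il1rl1 encodes ST2, the receptor for IL-33, which is found on mast cells, basophils and other cells of type 2 immunity and pairs with Il1rap. Ifngr1 and Ifngr2 encode the ligand-binding and the signalling chain of the interferon-γ receptor. Apart from Csf1r and Il1rl1, these receptors signal through Janus kinases (JAK) and STAT transcription factors.

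The start regions of the 3 genes with the widest differences between the libraries among those with at least 1 CPM (counts of the gene per 1000000 counts) are printed here, because these genes differed in opposite directions: Csf3r was higher with retinoic acid, and Csf2rb2 and Il1rl1 were lower. The sequences are from RefSeq, build GRCm38.p6, read 5′ to 3′ on the gene's strand, upstream of the start site and without bases that GENCODE M21 gives to an exon. They lie at chr4:126024409-126024549 (plus strand, Csf3r), chr15:78305722-78305971 (minus strand, Csf2rb2) and chr1:40429320-40429569 (plus strand, Il1rl1). Capitals mark matches, on either strand, to a GATA word (AGATAA), an ETS word (GAGGAA), a C/EBP word (TTNNGCAA) or the AGGTCA word of retinoic acid receptors.
Csf3r: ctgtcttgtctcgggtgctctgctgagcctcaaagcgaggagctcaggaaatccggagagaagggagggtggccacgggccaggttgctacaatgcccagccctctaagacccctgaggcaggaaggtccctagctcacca
Csf2rb2: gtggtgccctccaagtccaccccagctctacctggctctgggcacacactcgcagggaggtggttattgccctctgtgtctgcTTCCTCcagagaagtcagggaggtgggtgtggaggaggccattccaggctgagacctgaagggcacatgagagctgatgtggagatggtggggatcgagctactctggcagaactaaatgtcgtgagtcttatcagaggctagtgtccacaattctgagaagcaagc
Il1rl1: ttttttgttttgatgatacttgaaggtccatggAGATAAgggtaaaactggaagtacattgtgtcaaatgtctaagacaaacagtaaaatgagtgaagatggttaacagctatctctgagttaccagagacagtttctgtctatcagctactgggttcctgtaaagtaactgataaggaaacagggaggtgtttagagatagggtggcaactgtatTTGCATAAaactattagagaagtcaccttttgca
The Csf3r stretch of 141 bases held none of these words, but the rest of its 250-base window, which GENCODE gives to an exon, held the ETS word 86 bases upstream of the RefSeq start. The Csf2rb2 stretch held the ETS word on the opposite strand, 167 bases upstream of the start. The Il1rl1 stretch held the GATA word 217 bases upstream and the C/EBP word on the opposite strand 34 bases upstream. RefSeq gives Il1rl1 another start site at chromosome 1 position 40439629, whose window is not printed and held AGGTCA 185 bases upstream and the GATA word on the opposite strand 103 bases upstream. Over 32851 windows of 250 bases, the GATA word was in 9.99%, the ETS word in 23.3%, the C/EBP word in 9.56% and AGGTCA in 14.0%. Windows were found for 8 of the 10 genes. A match describes these letters and is not a binding site.

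The cells kept numbered 5476 with vehicle, carrying 99107718 UMIs (unique molecular identifiers, each marking 1 captured RNA molecule), and 7140 with retinoic acid, carrying 110088247 UMIs. The median cell had 16750 UMIs with vehicle and 14604 with retinoic acid. Barcodes found in both libraries numbered 11. A sum of 0 counts allows up to 3 counts, which is 0.0303 CPM with vehicle and 0.0273 CPM with retinoic acid. Folds given as "at least" set the observed level of 1 group against 3 counts in the other. They leave out the counting error of the observed level. The sorted label was checked against primary granule genes, the textbook mark of promyelocytes: 6 of 7 listed genes were found and summed to 8291 CPM with vehicle and 18863 CPM with retinoic acid. Most of the vehicle sum was Ctsg, at 6444 CPM with vehicle and 5979 CPM with retinoic acid. In the same order, Elane was at 62.8 and 7663 CPM, Prtn3 at 246 and 2819 CPM and Ms4a3 at 850 and 2087 CPM. Prss57 was at 377 and 315 CPM. Mpo, the peroxidase of that granule, was at 311 CPM with vehicle and at 0.50 CPM with retinoic acid, so this defining marker was nearly absent from the treated cells. The secondary granule genes Camp, Ngp, Ltf and Lcn2 summed to 1114 and 34036 CPM. Cpa3, a mast cell and basophil protease, was at 570 and 0.0999 CPM. Lists for monocytes, dendritic cells, T and NK cells, B cells and erythroid cells gave 3 or more UMIs in at most 2 cells of a library. The basophil and mast list summed to 126 CPM with vehicle and 65.2 CPM with retinoic acid, almost all of it Mcpt8, with Fcer1a, Tpsb2, Tpsab1 and Mcpt4 at 0 counts in both libraries. The eosinophil list summed to 114 and 30.5 CPM. The megakaryocyte list summed to 29.1 and 1.08 CPM, with 3 or more UMIs in 20 vehicle cells and 1 treated cell. Nearly all of the vehicle sum was Itga2b (28.9 CPM), and Ppbp had 0 counts there. The part of these lists in the lower receptor levels with retinoic acid was not tested beyond the values given for the basophil and mast list and the eosinophil list.

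Between the libraries, the receptors fell into 3 sets. The IL-3 receptor alpha chain and both beta chains were lower with retinoic acid, as was the IL-33 receptor. The G-CSF receptor and the IL-6 receptor alpha chain were higher. The GM-CSF receptor alpha chain and both interferon-γ receptor chains were higher by less than 1.5-fold, and M-CSF receptor transcripts were few in both, at 14 and 9 counts. Of the 7 receptor genes that reached 5 CPM in a library, 2 lay at or beyond 2-fold, Csf3r higher and Csf2rb2 lower. Over all genes, 923 of 9145 did so, or 10.1% (3.34% higher and 6.76% lower). With a limit of 1 CPM it was 4 of 9 receptor genes, Il6ra and Il1rl1 included, beside 14.2% of all genes, and with 20 CPM 1 of 5, beside 8.07%. With so few genes, 2 of 7 is not set apart from that background. Csf2rb and Il3ra lay just inside the 2-fold limit without reaching it, and with equal weight for every cell Il3ra passed it (-1.09). The median log2 ratio was -0.24 over the 10 receptor genes and -0.08 over the 14561 genes with at least 10 counts. Over the 7 with at least 5 CPM it was 0.29, against -0.01 over all genes above that limit. In the pooled counts, fewer cells with a transcript and less RNA in each cell cannot be told apart. Shares of positive cells are given beside the sums, but they also follow the mean level and do not settle this.

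**Figure D1:**
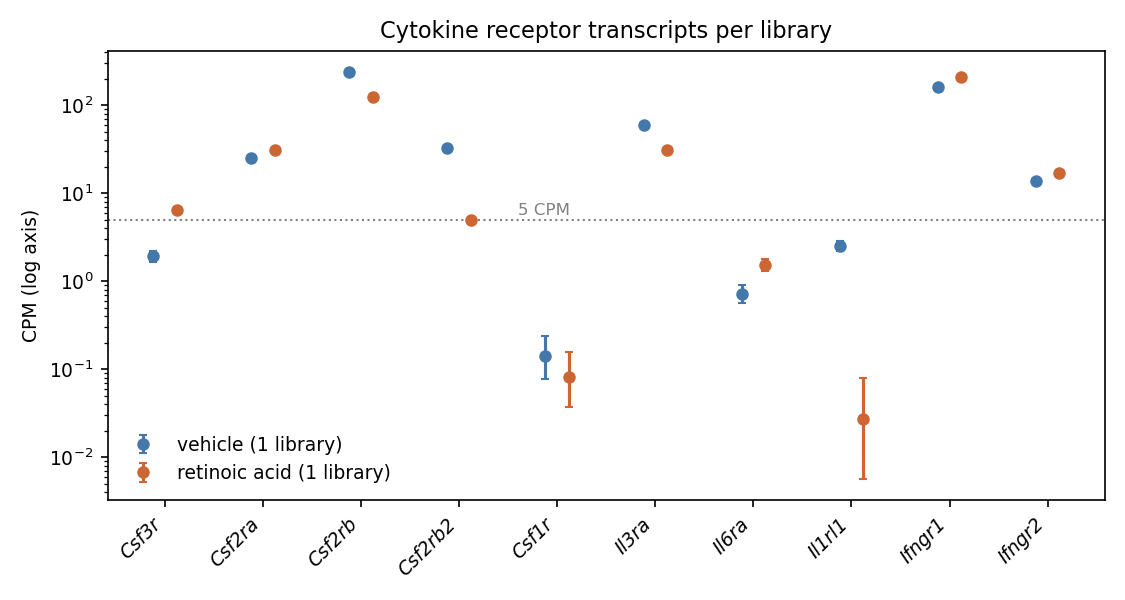
Receptor transcripts per library in CPM (log axis) for the 10 genes, with 1 point per library (blue vehicle, orange retinoic acid), bars for the exact Poisson 95% interval and a dotted line at 5 CPM. Csf2rb2 and Il1rl1 show the widest drop from vehicle to retinoic acid, and Csf3r crosses the 5 CPM line upward.

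Csf2rb2 (ENSMUSG00000071714, GRCm38 chromosome 15, 78282507 to 78305721, minus strand), the IL-3 beta chain, was at 32.9 CPM with vehicle (3258 counts, exact Poisson 95% interval 31.8 to 34.0) and at 4.98 CPM with retinoic acid (548 counts, 4.57 to 5.41). The vehicle library was 6.60-fold higher, a log2 ratio of -2.72 for retinoic acid over vehicle with a 95% counting interval of -2.86 to -2.59. Its neighbour Csf2rb (ENSMUSG00000071713, chromosome 15, 78325752 to 78353847, plus strand), the shared beta chain, was at 240.1 CPM with vehicle and 124 CPM with retinoic acid. Its log2 ratio was -0.95 (-0.98 to -0.92). The beta chains thus lay in the same direction, with intervals that do not overlap between the 2 ratios. Their sum was 273 CPM with vehicle and 129 CPM with retinoic acid, 2.12-fold lower. Csf2rb2 made up 12.04% of the beta chain UMIs with vehicle (exact binomial 95% interval 11.7 to 12.4%) and 3.86% with retinoic acid (3.55 to 4.19%).

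The beta chain genes are near copies, so a wrong assignment of reads between them was looked for in the reference. Their coding sequences were identical at 2506 of 2631 aligned bases, or 95.25%. Over whole transcripts, 892 words of 50 bases occurred in both. In the last 500 bases, where 3′ libraries take most of their reads, 0 of 451 such words were shared. How much reads outside that stretch added to either count was not tested.

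Il3ra (ENSMUSG00000068758, chromosome 14, 14346275 to 14356011, plus strand), the IL-3 alpha chain, was at 60.1 CPM with vehicle (5955 counts) and 30.9 CPM with retinoic acid (3396 counts). The log2 ratio was -0.96 (-1.02 to -0.90), close to that of Csf2rb. Il3ra overlaps an antisense gene, Gm48860. Csf2ra (ENSMUSG00000059326, chromosome 19, 61223957 to 61228429, minus strand), the GM-CSF alpha chain, was at 24.9 CPM with vehicle and 31.2 CPM with retinoic acid. Its log2 ratio was 0.32 (0.25 to 0.40), in the opposite direction from the alpha chain for IL-3.

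Csf3r (ENSMUSG00000028859, chromosome 4, 126024550 to 126044440, plus strand), the G-CSF receptor, was at 1.93 CPM with vehicle (191 counts, 1.66 to 2.22) and 6.40 CPM with retinoic acid (705 counts, 5.94 to 6.89). The retinoic acid library was 3.32-fold higher (log2 ratio 1.73, 1.50 to 1.97). Transcripts of this receptor were sparse in both libraries, since 3.03% of treated cells had a UMI at equal depth. Il6ra (ENSMUSG00000027947, chromosome 3, 89864059 to 89913196, minus strand), the IL-6 binding chain, was at 0.716 CPM with vehicle (71 counts) and 1.54 CPM with retinoic acid (170 counts), a log2 ratio of 1.10 (0.70 to 1.53). In G1 cells the ratio was 0.20 (-0.72 to 1.04), and against the vehicle Mpo state alone, a group of cells defined further on, 0.54 (-0.20 to 1.49), so neither interval excluded an equal level. The gene overlaps an antisense gene, Gm42809. Its partner Il6st (gp130) had 44 counts with vehicle and 1 with retinoic acid, a log2 ratio of -5.04 (-10.9 to -3.06).

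Il1rl1 (ENSMUSG00000026069, chromosome 1, 40429570 to 40465415, plus strand), the IL-33 receptor, had 251 counts with vehicle (2.53 CPM, 2.23 to 2.87) and 3 counts with retinoic acid (0.0273 CPM, 0.00562 to 0.0796). The log2 ratio was -6.32 with a counting interval of -8.83 to -4.97. Its signalling partner Il1rap was at 5.39 CPM with vehicle and 9.77 CPM with retinoic acid, so the chains of this receptor differed in opposite directions. Csf1r (ENSMUSG00000024621, on chromosome 18), the M-CSF receptor, had 14 counts with vehicle and 9 with retinoic acid, with a log2 ratio of -0.76 whose interval ran from -2.18 to 0.52. A difference in Csf1r was not detectable at this depth. The gene overlaps Hmgxb3 on the opposite strand.

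Ifngr1 (ENSMUSG00000020009, chromosome 10, 19591949 to 19610229, plus strand), the interferon-γ binding chain, was at 159 CPM with vehicle and 210.0 CPM with retinoic acid. The log2 ratio was 0.40 (0.37 to 0.43). Ifngr2 (ENSMUSG00000022965, chromosome 16, 91547072 to 91565623, plus strand), the chain that brings in JAK2, was at 13.8 CPM with vehicle and 16.9 CPM with retinoic acid, with a log2 ratio of 0.29 (0.19 to 0.39). Both chains were higher in the treated library by less than 1.5-fold.

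Shares of positive cells were taken after each cell had been thinned to 5000 UMIs, which kept 5282 cells with vehicle and 6659 with retinoic acid, while 194 and 481 were too shallow. Csf2rb had at least 1 UMI in 64.8% of vehicle cells and 45.5% of retinoic acid cells, a difference of -19.3 percentage points (Newcombe 95% interval -21.1 to -17.6). Without thinning, these shares were 92.3% and 76.3%. Cells with at least 2 UMIs of Csf2rb were 32.7% and 13.9%, and the highest count in a thinned vehicle cell was 16 against 5. The mean was 1.21 UMIs of Csf2rb per thinned vehicle cell and 0.629 per treated cell. At such means both shares fall whenever the mean does. They do not tell fewer cells with the transcript from less RNA in each cell. The variance of thinned counts over their mean, which is 1 for counting alone, was 1.45 with vehicle and 1.06 with retinoic acid for Csf2rb. It was 1.61 and 1.00 for Csf2rb2, so both beta chains were more uneven between vehicle cells. For Ifngr1 it was 1.095 and 1.22, the other way. What lay behind these values was not tested. Csf2rb2 was detected in 14.1% of vehicle and 2.45% of retinoic acid cells (-11.6 points, -12.7 to -10.6). Il3ra was detected in 26.1% and 13.9% (-12.1 points, -13.6 to -10.7).

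The share of Ifngr1-positive cells was 53.0% with vehicle and 61.3% with retinoic acid (8.33 points, 6.54 to 10.1), and that of Ifngr2 7.00% and 8.74%. Csf2ra was detected in 12.7% and 14.6% of cells, and Csf3r in 1.17% and 3.03%. Unthinned, the shares of Csf3r were 3.20% and 8.95%. Il1rl1 was detected in 65 vehicle cells (1.23%) and in 1 retinoic acid cell (0.0150%). Il6ra was detected in 0.379% and 0.601%, with a difference of 0.222 points whose interval included 0 (-0.0379 to 0.476). Csf1r was detected in 5 and 4 cells. No population that should lack these genes was large enough to measure the share that free RNA gives, so that share is not known. At 5000 UMIs per cell, none of the 10 genes was detected in 8.80% of vehicle cells and 13.6% of retinoic acid cells.

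**Figure D2:**
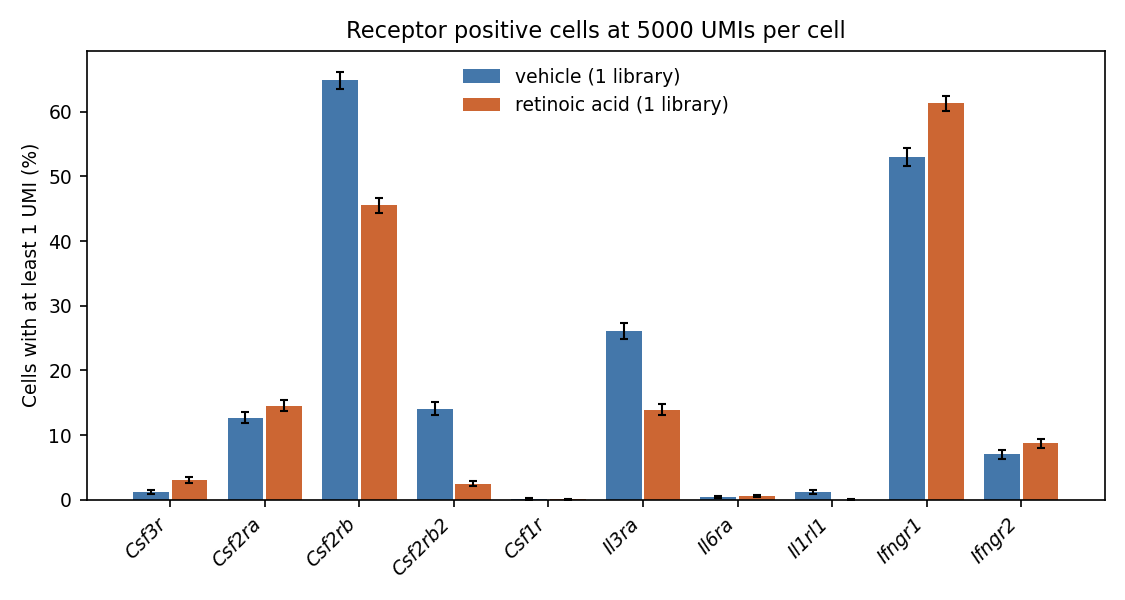
Percent of cells with at least 1 UMI of each receptor gene after thinning every cell to 5000 UMIs (5282 vehicle cells in blue, 6659 retinoic acid cells in orange, 1 library each), with exact binomial 95% intervals as bars. Csf2rb, Csf2rb2 and Il3ra have the lower orange bars and Ifngr1 the higher one.

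Vehicle cells were divided by thinned UMIs of Mpo and Cpa3, with at least 2 UMIs counted as having the gene. The Mpo state held 630 cells, the Cpa3 state 2150, cells with both 197 and cells with neither 2305. These are ranges of 2 measured levels and not cell types: 307 cells had exactly 1 UMI of Mpo and 728 exactly 1 of Cpa3. Receptor levels differed between them. Csf2rb2 was at 53.1 CPM in the Cpa3 state (50.8 to 55.5), 27.2 in cells with both, 21.5 in cells with neither and 13.6 in the Mpo state (11.7 to 15.7). The Cpa3 state was thus 3.91-fold above the Mpo state, while cells with both and cells with neither lay between them with overlapping intervals. At equal depth, 20.2% of Cpa3-state cells and 6.19% of Mpo-state cells had a Csf2rb2 UMI.

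Of the 6 receptor genes with at least 5 CPM in the Cpa3 or Mpo state, Csf2rb2 alone differed at least 2-fold, against 3.43% of all genes. Csf2rb followed the same order, at 273 CPM in the Cpa3 state, 228 in cells with both, 225 in cells with neither and 194 in the Mpo state. Csf2rb2 was 16.3% of beta chain UMIs in the Cpa3 state and 6.53% in the Mpo state. Il3ra was at 72.9 CPM in the Cpa3 state and 69.5 in cells with both, above 51.1 in cells with neither and 50.1 in the Mpo state. The intervals of the higher pair did not meet those of the lower pair. Csf2ra ranged over 20.9 to 27.7 CPM across these states, with its lowest level in the Mpo state.

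Il1rl1 had 142 counts in the Cpa3 state and 0 in the Mpo state, which makes it at least 17.5-fold higher in CPM in the Cpa3 state (against 3 counts over the Mpo state). None of the 630 Mpo-state cells had a UMI at equal depth, which allows up to 0.476% of cells with a UMI and sets no limit on cells that express the gene. Csf3r was the reverse, at 3.30 CPM in the Mpo state (2.41 to 4.41) and 1.38 CPM in the Cpa3 state (1.03 to 1.82). Ifngr1 was at 171 CPM in the Mpo state and 140 CPM in the Cpa3 state, and Ifngr2 at 10.4 and 14.7 CPM, so the interferon-γ receptor chains did not follow each other. The basophil and mast list was at 69.6 CPM in the Mpo state and 179 CPM in the Cpa3 state, and the eosinophil list at 7.33 and 176 CPM. Without cells that had at least 2 UMIs of the basophil and mast list, Csf2rb2 was at 39.2 CPM in the Cpa3 state and 13.7 CPM in the Mpo state, and Il1rl1 at 1.64 CPM and 0.

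**Figure D3:**
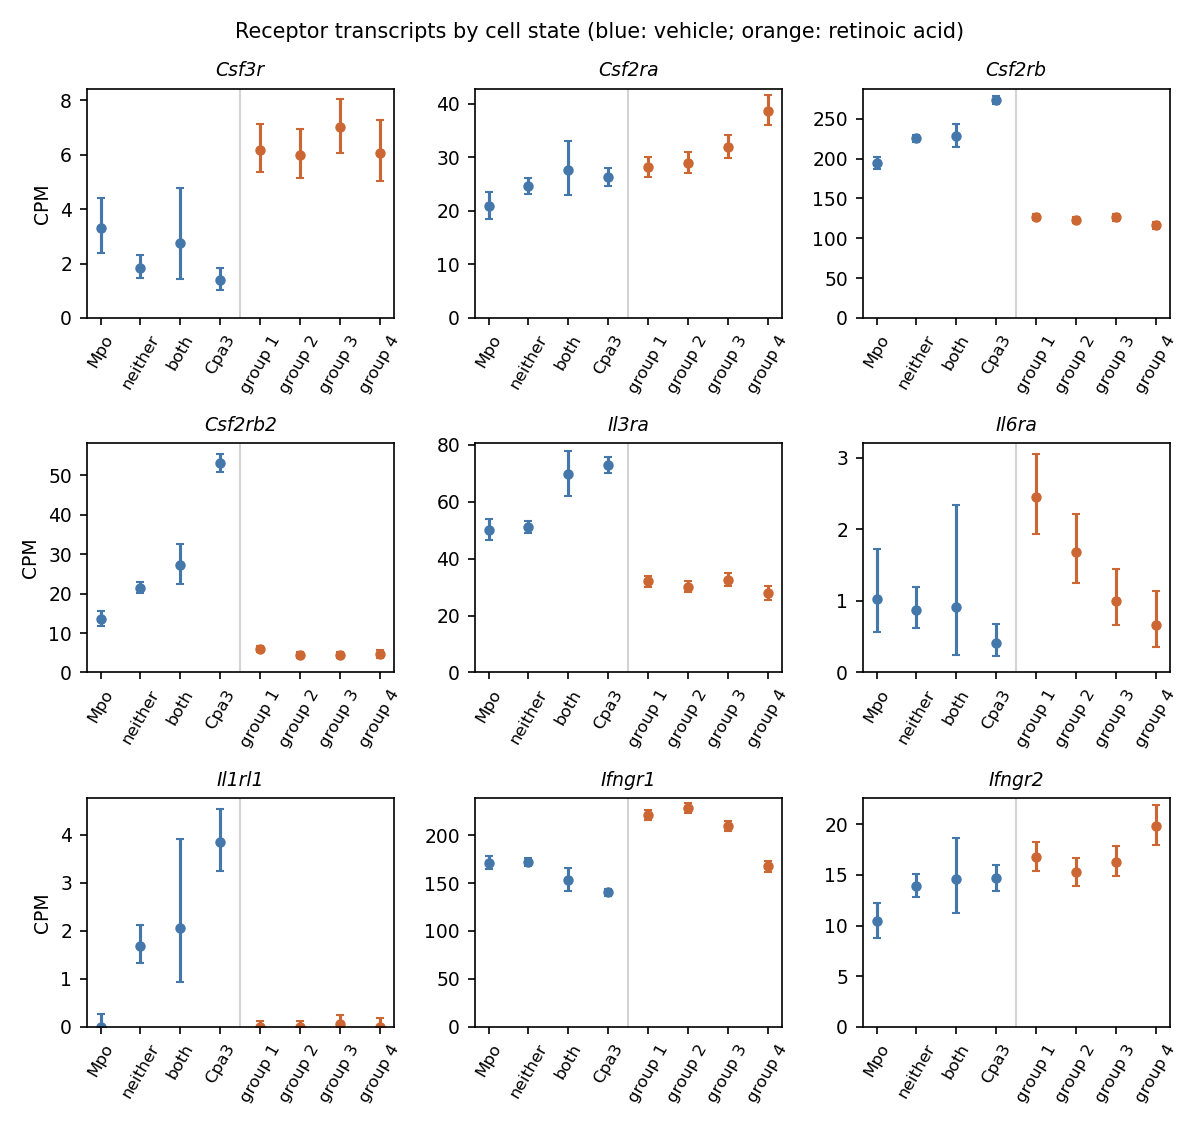
CPM of 9 receptor genes in 4 states of vehicle cells (blue, by Mpo and Cpa3 UMIs) and in 4 groups of retinoic acid cells by secondary granule share (orange, group 1 lowest to group 4 highest), with exact Poisson 95% intervals as bars and an axis of its own for each gene. Csf2rb2 spans 13.6 to 53.1 CPM across vehicle states and stays within 4.40 to 5.91 CPM across the granule groups.

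Along the Cpa3 level itself, vehicle cells were placed in bins of 0 (2207 cells), 1 (728), 2 to 3 (791), 4 to 7 (795) and 8 or more (761) thinned Cpa3 UMIs, bins that were chosen after the data had been seen. Csf2rb2 was at 18.0, 24.3, 32.0, 41.1 and 85.1 CPM in these bins in order. Il3ra was at 50.1, 52.9, 63.1, 68.3 and 89.8 CPM, and Csf2rb at 213, 232, 244, 256 and 315 CPM. In the last bin all 3 chains of the IL-3 receptors lay above the first bin beyond their intervals (for Il3ra 84.5 to 95.4 against 48.0 to 52.3 CPM), Csf2rb2 by the widest ratio. These intervals, like those of the states, leave out spread between cells beyond counting. Over all thinned vehicle cells, variance over mean was 1.45 for Csf2rb, 1.61 for Csf2rb2 and 1.07 for Il3ra. Some neighbouring bins overlapped, such as the first 2 for Il3ra. Csf2ra stayed within 22.3 to 27.5 CPM, and Ifngr1 was at 176 CPM in the first bin and 136 CPM in the last.

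**Figure D4:**
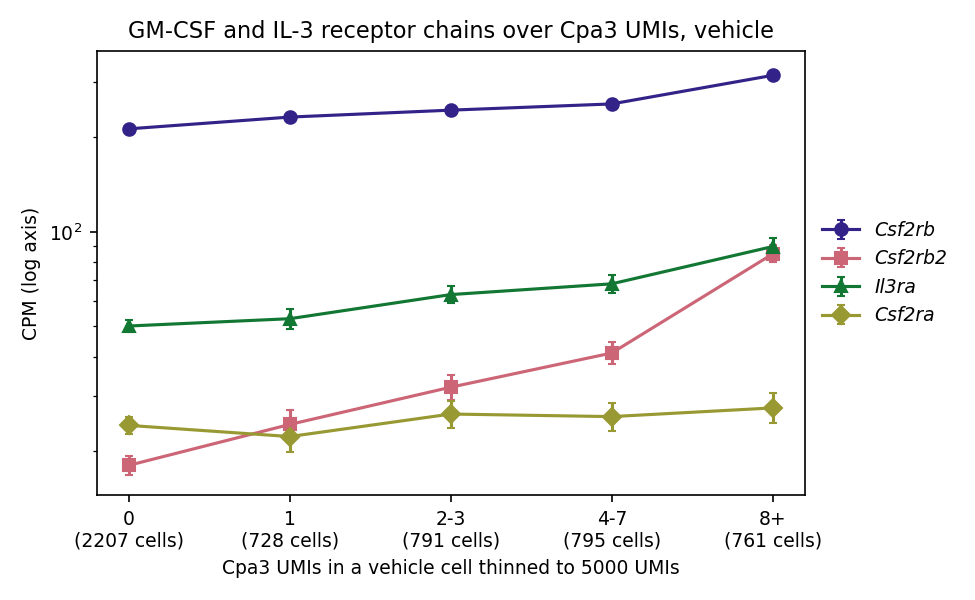
CPM (log axis) of the GM-CSF and IL-3 receptor chains in vehicle cells grouped by Cpa3 UMIs per cell thinned to 5000 UMIs, with exact Poisson 95% intervals as bars. Csf2rb2 runs from 18.0 to 85.1 CPM and Il3ra from 50.1 to 89.8 CPM, while Csf2ra stays within 22.3 to 27.5 CPM.

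Cells with marker transcripts of other granulocytes had the highest Csf2rb2 and Il1rl1 levels of the vehicle library among the groups compared. The 162 vehicle cells with at least 3 eosinophil-list UMIs had Csf2rb2 at 114 CPM (100.4 to 129), Il1rl1 at 17.1 CPM (12.1 to 23.6) and Csf3r at 0 counts. The 612 with at least 2 basophil and mast list UMIs had Csf2rb2 at 87.2 CPM and Il1rl1 at 12.2 CPM. These groups share cells and are not separate results. In the 162 cells the basophil and mast list summed to 706 CPM, with a median of 2 thinned UMIs. In treated cells, 321 passed the basophil and mast limit, and in them Csf2rb2 was at 4.75 CPM, Il1rl1 had 0 counts and Csf3r was at 8.99 CPM (6.73 to 11.7). Among cells passing this limit, Csf2rb2 and Il1rl1 were thus high with vehicle but not with retinoic acid. The groups were unlike in other ways too. With vehicle and retinoic acid, the list summed to 584 and 233 CPM in them, and the eosinophil list to 510 and 19.7 CPM. Cpa3 was at 910.5 and 0 CPM. Of the 612 vehicle cells, 299 had exactly 2 UMIs of the list. How many treated cells passed the limit by counting alone was not tested. With cells passing either limit left out of the vehicle library, a choice made after the data had been seen, 4590 cells remained, and the ratios of retinoic acid over vehicle were -2.32 for Csf2rb2, -4.85 for Il1rl1 (-7.37 to -3.47) and 1.67 for Csf3r.

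Treated cells were ordered by the percent of their UMIs in Camp, Ngp, Ltf and Lcn2, secondary granule genes that mark neutrophil maturation, and divided into 4 near-equal groups at 0.6, 1.82 and 6.11%, group 1 being the lowest. Of the 7 receptor genes with at least 5 CPM in group 4 or group 1, 0 differed at least 2-fold between them, against 14.3% of all genes. In groups 1 to 4, Csf3r was at 6.19, 5.99, 7.02 and 6.07 CPM, with overlapping intervals. Csf2rb was at 126, 123, 126 and 116 CPM, Il3ra at 32.0, 30.2, 32.6 and 27.8 CPM, and Csf2rb2 at 5.91, 4.48, 4.40 and 4.68 CPM. The beta chains and the IL-3 alpha chain were thus low in every group, and no group reached the level of any of the 4 vehicle states. Group 4 had a median of 10760 UMIs per cell and group 1 of 17905.

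Csf2ra, the GM-CSF alpha chain, was at 28.2, 28.9, 32.0 and 38.7 CPM across the groups, a log2 ratio of 0.46 (0.32 to 0.60) for group 4 over group 1. With the granule and late neutrophil genes left out of the total, this ratio was 0.78. Ifngr2 was at 16.8, 15.3, 16.3 and 19.9 CPM. Ifngr1 was at 221, 228, 209 and 167 CPM, a ratio of -0.40 (-0.46 to -0.34) that came to -0.09 with those genes left out of the total and to -0.81 in G1 cells. When the same genes were left out, Csf2rb turned from -0.12 to 0.19, Il3ra from -0.20 to 0.11 and Csf3r from -0.03 to 0.29. Il6ra was at 2.45 CPM in group 1 (1.93 to 3.06), 1.68 in group 2, 1.00 in group 3 and 0.669 in group 4 (0.356 to 1.14), from 77, 50, 28 and 13 counts. Group 4 was thus 3.54-fold below group 1, but only 1.40-fold below it in G1 cells, with 6 counts in each, and 1.96-fold when groups were formed by the late neutrophil list. In G1 cells Csf3r was at 4.06 CPM in group 1 and 8.14 CPM in group 4, a ratio of 0.98, against -0.03 over all phases.

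Group 1, whose secondary granule list summed to 3180 CPM, was also set beside vehicle cells. Of 7 receptor genes 2 differed at least 2-fold from all vehicle cells (8.19% of all genes), again Csf3r higher (1.68, 1.39 to 1.98) and Csf2rb2 lower (-2.47, -2.70 to -2.26). Il1rl1 had 0 counts there against 251, at least 26.6-fold lower. Set beside the vehicle Mpo state alone, 1 of 7 passed (5.88% of all genes): Csf2rb2 was at 5.91 against 13.6 CPM, a ratio of -1.20 (-1.50 to -0.90). Csf3r was at 6.19 against 3.30 CPM, a ratio of 0.90 (0.44 to 1.41). The choice of vehicle cells thus set the size of these differences, and for Csf3r it decided whether the 2-fold limit was reached.

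Over the whole treated library the same dependence was seen. The ratio of Csf2rb2 was -1.45 against the Mpo state, -2.02 against vehicle cells without the Cpa3 state and -3.41 against the Cpa3 state alone. That of Csf3r was 0.94 (0.52 to 1.43) against the Mpo state and 2.20 against the Cpa3 state. Il3ra gave -0.70 and -1.24, and Csf2rb -0.65 and -1.14. The direction was the same for these 4 genes against each set of vehicle cells, and Il1rl1, with 0 counts in the Mpo state and 3 in the treated library, could not be compared with that state.

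By cell cycle phase, the vehicle library had 2760 cells in G1, 710 in S and 1812 in G2/M, and the treated library 1799, 1943 and 2917. In G1, 3 of 7 receptor genes differed at least 2-fold between the libraries (14% of all genes): Csf3r higher, Csf2rb2 and Il3ra lower. In S and in G2/M, 2 of 7 did so (9% and 8.69% of all genes), Csf3r and Csf2rb2. Csf3r was 3.21-fold, 3.37-fold and 3.50-fold higher with retinoic acid in G1, S and G2/M. Csf2rb2 was at 50.3 CPM in vehicle G1 cells, 18.1 in S and 21.1 in G2/M, and at 7.10, 4.01 and 4.59 CPM in treated cells. Within the vehicle library, Csf2rb2 was the 1 receptor gene of 6 that differed at least 2-fold between G1 and G2/M (9.01% of all genes). Il1rl1, under 5 CPM, was at 4.27 CPM in vehicle G1 cells and 1.18 CPM in G2/M cells. Cpa3 was at 958 CPM in vehicle G1 cells and 315 CPM in G2/M cells, so phase and Cpa3 level moved together there, and their parts were not separated. Within the treated library 0 of 7 differed so between G1 and G2/M (7.58% of all genes).

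A working receptor needs both chains, so cells with a UMI of each were counted at 5000 UMIs per cell, where a chain can be missed by chance. Il3ra with Csf2rb was found in 17.2% of vehicle cells (16.2 to 18.3%) and 6.44% of treated cells (5.86 to 7.06%). The product of the single shares was 16.9% and 6.33%, so the chains were found together about as often as their separate shares give. Csf2ra with Csf2rb was found in 8.56% and 6.58% of cells, where the products were 8.24% and 6.63%. The GM-CSF alpha chain was thus more frequent with retinoic acid while cells with both GM-CSF chains were less frequent. Il3ra with Csf2rb2 was found in 4.09% and 0.315% of cells. Ifngr1 with Ifngr2 was found in 3.48% (3.01 to 4.01%) and 5.00% (4.49 to 5.55%), and the products of 3.71% and 5.36% lay within these intervals. Il1rl1 with Il1rap was found in 2 vehicle cells and in 0 treated cells, which allows a share of up to 0.0451%, and Il6ra with Il6st in 0 cells of either library. The products of the single shares came to 1.80 vehicle and 0.0478 treated cells for Il1rl1 with Il1rap. For Il6ra with Il6st they came to 0.0341 and 0 cells. At such numbers the counts cannot show whether these chains occur together.

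The other genes of these pathways were taken from lists, each read against the 10.1% of all genes that differed at least 2-fold between the libraries. Of 9 ligand genes, 1 had at least 5 CPM. This was Csf2, which encodes GM-CSF, at 21.2 CPM with vehicle and 7.30 CPM with retinoic acid (log2 ratio -1.53, -1.66 to -1.42). Csf3, Il3, Il33 and Ifng, the genes of the ligands for Csf3r, Il3ra, Il1rl1 and the interferon-γ receptor, had 0 counts in both libraries. Il6 had 244 counts with vehicle and 0 with retinoic acid, at least 90.3-fold lower, and Il34, a second ligand of Csf1r, had 1 and 186 counts. These ligand values describe the sorted cells and not the marrow around them.

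Of 16 other cytokine receptor genes with at least 5 CPM among 29, 3 were at least 2-fold higher with retinoic acid and 2 at least 2-fold lower. Il1r2, the decoy receptor for IL-1, was at 0.313 CPM with vehicle and 9.42 CPM with retinoic acid (log2 ratio 4.89, 4.40 to 5.48). Tnfrsf1b, a TNF receptor, was at 15.8 and 37.1 CPM, and Il21r, the IL-21 receptor, at 1.29 and 5.66 CPM. Il10ra, the IL-10 binding chain, had 607 counts with vehicle and 0 with retinoic acid, at least 225-fold lower. Il18r1, an IL-18 receptor chain, was at 11.7 and 4.51 CPM. The median log2 ratio of these 16 was -0.01, equal to that of all genes at 2 decimals.

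None of 14 kinase and adaptor genes and none of 7 STAT genes with at least 5 CPM differed at least 2-fold. Among the Janus kinases, Jak1 had a log2 ratio of 0.51, Jak2 of 0.02, Jak3 of 0.05 and Tyk2 of -0.25. Stat5a and Stat5b, which act below the beta chains, had ratios of -0.30 and -0.44. Stat2 was at 0.01, Stat3 at 0.14, Stat4 at -0.06 and Stat6 at 0.00. Of 18 negative regulators, 2 were at least 2-fold lower. These were Socs1, an inhibitor of JAKs, at 103 and 36.4 CPM, and Ptpn6, the phosphatase SHP-1, at 284 and 139 CPM.

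Of 8 STAT5 target genes, 2 were at least 2-fold lower with retinoic acid and 0 higher. Ccnd2, which encodes cyclin D2, was at 42.1 and 4.88 CPM (-3.11, -3.24 to -2.98), and Osm, which encodes oncostatin M, at 9.14 and 1.39 CPM. Cish, a STAT5 target and feedback inhibitor, was at 89.9 and 72.1 CPM, a ratio of -0.32, and the median of the list was -0.35. The list did not move as 1: Id1 was higher with retinoic acid, at 46.5 and 74.4 CPM (0.68, 0.63 to 0.73), and Myc had a ratio of -0.04. Of 5 STAT3 target genes, Fos alone passed, at 7.74 and 1.76 CPM. Of 16 interferon-γ target genes, 10 reached 5 CPM, of which 3 were at least 2-fold higher and 1, Socs1, lower, with a median of 0.80. The 6 below that limit went both ways: Cxcl9 (2.52) and Ciita (1.15) were higher, Gbp2 (-1.12) and Gbp3 (-1.39) lower, Gbp5 had 7 and 0 counts and Irf8 5 and 2. Cxcl10, a chemokine, was at 0.444 and 10.1 CPM (4.49, 4.07 to 4.97). Psmb9, an immunoproteasome subunit, was at 62.8 and 131 CPM, and Irgm1, an interferon-inducible GTPase, at 5.74 and 12.5 CPM. Type I interferon also acts on several of these genes.

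**Figure D5:**
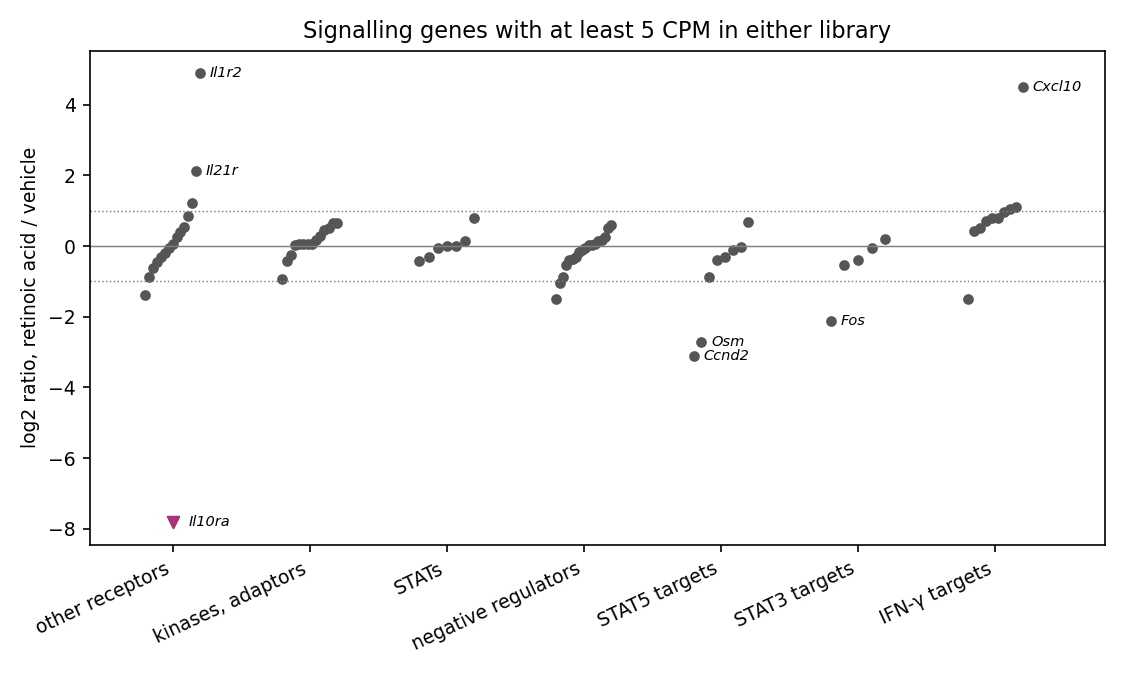
Log2 ratio of retinoic acid over vehicle for genes that reached 5 CPM in a library, in 7 lists of cytokine signalling genes. Each point is 1 gene, dotted lines mark 2-fold, and a triangle marks Il10ra at its bound of 225-fold against 3 counts. The kinase and STAT genes lie within the dotted lines. The interferon-γ targets shown, 10 of 16 listed, have a median of 0.80, against -0.01 over all genes above the limit. The listed targets under 5 CPM are not shown and went both ways.

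For each receptor gene with at least 5 CPM, the genes most like it were found by Pearson's correlation of log2(CPM + 1) over 24 pools of cells, made from library, state or granule group, and phase. Pools of 1 library share its preparation, so these values are descriptions. Csf2rb2 was most like Glb1 (r = 0.96), Csf2rb (0.96) and Ldhc (0.96). Csf2rb was most like Hdc (0.97), which encodes the histidine decarboxylase that makes histamine, Plec (0.97) and Cyp11a1 (0.97). Il3ra was most like Il15 (0.98), Pld3 (0.97) and Itga2b (0.97). Over the 12 vehicle pools alone, Csf2rb2 with Csf2rb gave 0.96 and Il3ra with Il15 gave 0.97, and over the 12 treated pools 0.61 and 0.63. Vehicle and treated pools gave 0.91 and 0.52 for Csf2rb with Hdc, and 0.86 and 0.51 with Cyp11a1. Csf2rb with Plec gave 0.85 and 0.78, and Il3ra with Pld3 gave 0.90 and 0.26.

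Csf3r was most like Fbp1 (0.94), a gluconeogenic enzyme, Rab32 (0.91) and Tnfsf13 (0.90). Within the treated pools these came to 0.17, 0.25 and 0.28, so the likeness lay mainly between the libraries and within the vehicle pools. Csf2ra was most like Apbb1ip (0.87), Pi16 (0.86) and Unc93b1 (0.85), and its likeness to Apbb1ip was 0.86 within each library. Ifngr1 was most like Ndufb3 (0.97), a subunit of respiratory complex I, Tomm7 (0.96) and Atp5mpl (0.96). Within the vehicle pools these came to 0.84, 0.64 and 0.78, and within the treated pools to 0.97, 0.98 and 0.96. The treated pools were formed by granule share, and the part of granule RNA in the totals was not tested here. Ifngr2 was most like Mcl1 (0.83), a survival gene of the Bcl2 family, Tsc22d3 (0.82) and AI467606 (0.79). The interferon-γ receptor chains had no gene in common among their 3 closest. Lists of 3 from 5547 and 5548 candidates are too short to show whether the chains go together.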

How the data were processed

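The authors deposited UMI counts, not normalised, for each gene in each cell. Per the file headers they come from Cell Ranger 4.0.0. The submitters' processing notes name mm10 and GRCm38.p4. The cell-calling rule is not given in the sources used here. All other steps were computed here. Cells with at least 1000 UMIs, 500 genes and at most 10% mitochondrial UMIs were kept, which removed 310 vehicle and 276 retinoic acid barcodes. Counts were summed over cells and scaled to CPM. Log2 ratios had 0.5 counts added to each sum. Ratios carry exact conditional binomial intervals, sums exact Poisson intervals and shares exact Clopper-Pearson intervals, all at 95%, and cover counting error only. A difference was counted when a gene reached 5 CPM in either group and 2-fold. With 1 library per group there was no test. A doublet caller marked 0.0183% and 0.0980% of cells, which was taken as not having worked, and no doublets were removed. Phases came from scanpy 1.11.5. Python 3.11.15, scipy 1.17.1 and pandas 2.3.3 were used, and TMM factors from edgeR 4.0.16 were an alternative. Calculations were tested on simulated data. Coordinates come from GENCODE M21, where 32158 identifiers matched. Named genes were the 10 receptors, list genes past 2-fold with at least 5 CPM, Il6st, Il1rap, the Jak and Stat genes (1 of which is not reported here), the 3 genes most like each receptor among genes with at least 20 CPM, and the genes that define states. Cish, Id1, Myc, Il6, Il34, the ligands at 0, the primary granule genes other than Mpo and the interferon-γ targets under 5 CPM were added after their values had been seen. The genes, lists and limits were chosen with earlier results of these data known.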

Additional observations from a re-analysis of the deposited data

How the results depend on the processing

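No paired analysis was possible because neither group had more than 1 library. Of 159 values recomputed under other settings, 136 stayed close to the main value, 22 moved further and 1 reversed. For ratios and shares of single receptor genes, close meant inside the counting interval of the main value. Such a value could still cross the 2-fold limit, as Il6ra did at 0.86 with equal weight for every cell. A count of receptor genes that went from 2 to 3 was also taken as close. With equal weight for every cell, 3 receptor genes differed at least 2-fold, Il3ra being added. The limit on low counts moved the counts further. With at least 1 CPM in either library, 4 receptor genes differed at least 2-fold (Il6ra and Il1rl1 were added) among 1603 genes, or 14.2% of those compared. With at least 20 CPM, 1 did (Csf2rb2) among 448, or 8.07%, and with no limit 4 did among 6081. The median log2 ratio over the receptor genes turned from -0.24 to 0.29 when those under 5 CPM were left out, which leaves fewer genes. TMM scaling shifted every log2 ratio by 0.08. Of 90 recomputed ratios of single receptor genes, none changed direction. That count leaves out single phases and other choices of vehicle cells, where Csf1r did change direction. Its ratio was -0.76 in the main setting and 0.44 without vehicle cells passing the basophil and mast or eosinophil limit. It was 1.24 against the Mpo state and 3.11 in G2/M, from few counts. Depth limits Csf1r, Il6ra and Il1rl1, whose sums in a library were as low as 9, 71 and 3 counts.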

Other observations

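Some groups of cells were too small to enter a comparison. In the vehicle library, 79 cells had a secondary granule share above the median of the treated cells. Their secondary granule list summed to 52142 CPM. In them Csf2ra was at 57.0 CPM (43.4 to 73.5), Csf2rb2 at 26.1 CPM (17.2 to 37.9), Il3ra at 47.3 CPM (35.0 to 62.5) and Csf3r at 1.93 CPM from 2 counts (0.234 to 6.97). Their Csf2rb2 made up 9.85% of beta chain UMIs (6.59 to 14.0%). In the treated library, 19 cells had at least 3 UMIs of the eosinophil list. They held 46 counts of Csf2rb, 5 of Csf2rb2, 45 of Ifngr1 and 1 of Il3ra, and 0 counts of the other 6 receptor genes.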
